A study of Piriqueta cistoides subsp. caroliniana with 18 samples.

Results

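The drought response of caroliniana leaves was taken as the difference between 3 caroliniana plants after drought and 3 caroliniana plants kept well-watered. These 6 of the 18 plants lay on 10 of the 18 two-colour arrays, and 2 of those arrays set a drought against a well-watered caroliniana plant directly. The other 8 paired a caroliniana plant with a plant of the hybrid or of the viridis morphotype. The plants belonged to Piriqueta cistoides subsp. caroliniana, a perennial herb that occurs as the morphotypes caroliniana, viridis and their hybrid, and each of these had 3 drought and 3 well-watered plants. All 18 were cuttings rooted in sand in 1 greenhouse, with the same temperatures and day length given for all, and amplified RNA was used for the arrays. Drought plants went through 4 dry cycles within 36 days, and the well-watered plants were their controls. The labels do not say which cuttings came from the same mother plant, so p-values hold for these plants only. They rest on the residual scatter over all 18 arrays, with the same ratio of plant to array variance for all probes.

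The arrays carried soybean cDNA clones, so that Piriqueta RNA was measured by its hybridisation to the DNA of another species, and genes carry the soybean symbols of the clones. A ratio between plants gives no level of a gene, and the leaf identity of the samples could therefore not be checked from marker levels. Each value is a log ratio, given here in log-ratio units as drought minus well-watered with the ratio read as Cy5 over Cy3. Neither this direction nor the base of the logarithm is stated. On the opposite reading the positive and the negative side of each difference exchange places, and for that reason changes are described by side and not as more or less RNA.

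In a leaf, chlorophyll a/b-binding proteins hold the pigments that pass light energy to the photosystems, and magnesium chelatase opens the branch of tetrapyrrole synthesis that leads to chlorophyll. Plants short of water close their stomata, which limits carbon dioxide while light is still absorbed, and genes for light harvesting are a known point of control in that state. Other well-known parts of the drought response are compatible solutes and sugars made from myo-inositol, polyamines, enzymes that remove hydrogen peroxide, and late embryogenesis abundant proteins. Caroliniana leaves were measured on 7880 probes with values on at least 14 arrays, of which 467 probes of 309 genes had a single gene symbol. The symbols of 96 of those genes were LOC numbers with no description. The arrays held between 5962 and 8134 values, and the array with 5962 paired caroliniana well-watered plant 1 with hybrid well-watered plant 3. The submitters' titles call the array of caroliniana drought plant 2 and well-watered plant 1 the best, and mark as bad 1 array without a caroliniana plant.

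Drought changed 63 of the 7880 probes in caroliniana (0.799%), at an adjusted p below 0.05 in limma's moderated test after a loop fit with the plant as a random effect. Of these called probes, 55 lay on the positive side (0.698% of the tested probes) and 8 on the negative side (0.102%). The positive calls ranged from 0.35 to 3.24 with a median of 1.41, and the negative calls from -1.91 to -0.37 with a median of -0.77. A size above 1 was reached by 38 of the 63 and a size above 2 by 11. The median over all tested probes was -0.00850, and 313 probes (3.97%) had an unadjusted p below 0.05. Of the 467 tested probes with a gene name 5 were called, all on the positive side, and the other called probes had no gene name. In whole leaves, fewer cells of a type and less RNA per cell cannot be told apart, which holds for each difference given here. The named calls belonged to CAB3, a chlorophyll a/b-binding protein, CHLH, the subunit H of magnesium chelatase, and MIPS, the myo-inositol-3-phosphate synthase.

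CAB3 had 4 probes, and 3 of them were called. On the 2 direct arrays CAB3 Gm06115 was 1.54 for drought plant 1 minus well-watered plant 2 and 1.72 for drought plant 2 minus well-watered plant 1. Its plant values were 0.24, 1.26 and 0.83 in drought plants 1, 2 and 3, against -0.44, -1.33 and -0.55 in the well-watered plants. The lowest drought plant thus lay on the positive side of the highest well-watered plant, although drought plant 1 was closer to the controls than the other drought plants were. The mean of the plant values was 0.78 ± 0.51 in drought plants and -0.78 ± 0.48 in well-watered plants (SD, n = 3 each). Plant values were solved from the loop for probes with values on all arrays and are centred on the 6 caroliniana plants. The 18 ratios determine them without averaging, so they carry the error of neighbouring arrays and their difference need not equal the fitted effect. The fitted effect of Gm06115 was 1.64 ± 0.238 (SE, adjusted p = 0.00229), or 3.13-fold with base 2 and 5.18-fold with base e.

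CAB3 Gm05985 gave 1.23 and 1.45 on the same direct arrays. Drought plants 1, 2 and 3 had 0.22, 0.79 and 1.09, against -0.75, -0.92 and -0.42 in the well-watered plants, again without overlap. The fitted effect was 1.47 ± 0.234 (adjusted p = 0.00431). CAB3 Gm01099 had the largest fitted effect of a named probe, 2.70 ± 0.529 (adjusted p = 0.0369), but values on 15 arrays only, so no plant values could be solved. Its direct arrays gave 1.95 and 2.55. The fourth probe, Gm05769, gave 0.43 and 1.01 on the direct arrays and 1.49 ± 0.502 in the fit over its 16 arrays (adjusted p = 0.591). All 4 estimates thus lay on the positive side, and the imprecise pair Gm01099 and Gm05769 was the pair with missing values. The call of Gm06115 ended when caroliniana drought plant 2 (1.56, adjusted p = 0.0964) or well-watered plant 2 (1.69, adjusted p = 0.0503) was left out. That of Gm05985 ended without drought plant 2 (1.38, adjusted p = 0.128) or well-watered plant 1 (1.45, adjusted p = 0.0789).

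CHLH was called with Gm06139, 1 of its 2 probes. The direct arrays gave 1.37 for drought plant 1 minus well-watered plant 2 and 0.63 for drought plant 2 minus well-watered plant 1. Drought plants 1, 2 and 3 had 0.82, 0.35 and 0.05, against -0.34, -0.48 and -0.40 in the well-watered plants. The well-watered plants lay close together, with a mean of -0.41 ± 0.07, while the drought plants were more widely spread (0.41 ± 0.39, SD, n = 3 each). The fitted effect was 0.81 ± 0.141 (adjusted p = 0.00981). Without drought plant 1 it was 0.55 (adjusted p = 0.218) and without well-watered plant 2 it was 0.60 (adjusted p = 0.219). Those are the plants of the direct array with the larger value, and the call also ended without drought plant 2 or well-watered plants 1 or 3. The other probe, Gm06047, had 0.42 ± 0.258 (adjusted p = 0.999), with 0.07, 1.17 and -0.44 in the drought plants, against 0.62, -0.54 and -0.89 in the well-watered plants, which overlapped.

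Of the other chlorophyll synthesis genes, HEMB, the aminolevulinate dehydratase, lay on the opposite side with -0.33 ± 0.119 (adjusted p = 0.673). Its direct arrays disagreed, with -0.88 and 0.07. GSA1, the glutamate-1-semialdehyde aminotransferase, had -0.07 ± 0.0864. In the list of chlorophyll synthesis genes, 1 of 4 probes was called on the positive side (0.698% of all tested probes) and none on the negative side (0.102%), with a median of 0.17. The list of photosystem and light-harvesting genes matched CAB3 alone, so its 3 positive calls among 4 probes repeat the values above. PSAD, a subunit of photosystem I that was added after the symbols had been seen, had 0.22 ± 0.126 for Gm06019 and -0.05 ± 0.0896 for Gm10356. Neither PSAD probe passed the test.

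**Figure D1:**
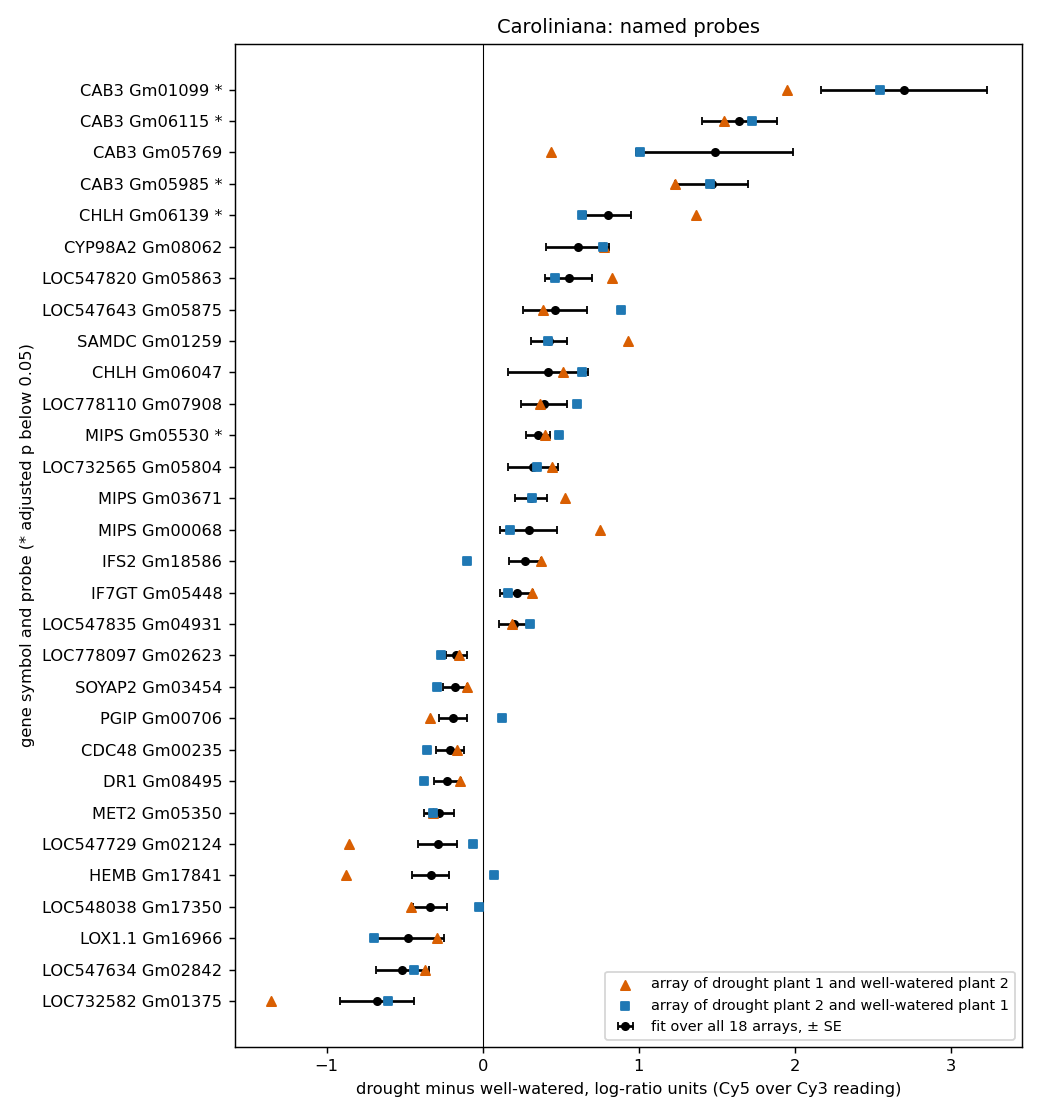
Drought minus well-watered in caroliniana for the named probes with the smallest p on each side and all probes of the called genes, in log-ratio units (Cy5 over Cy3 reading). Black points with bars are fitted effects ± SE over all 18 arrays, and triangles and squares are the 2 direct arrays; the 5 called probes, marked by an asterisk, lie between 0.35 and 2.70.

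MIPS makes the first intermediate of inositol synthesis from glucose 6-phosphate, and its product feeds solutes such as pinitol and the raffinose sugars. The direct arrays gave 0.40 and 0.49 for MIPS Gm05530. Drought plants 1, 2 and 3 had 0.20, 0.37 and -0.02, against -0.10, -0.22 and -0.23 in the well-watered plants. The groups did not overlap, but drought plant 3 lay nearer to the controls than to drought plant 2. The fitted effect was 0.35 ± 0.0764 (adjusted p = 0.0471), the smallest among the positive calls, and the call ended without 16 of the 18 plants while the effect stayed between 0.30 and 0.39. The other probes had 0.31 ± 0.102 for Gm03671 (adjusted p = 0.483) and 0.29 ± 0.183 for Gm00068 (adjusted p = 0.999), similar in size to the called probe.

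SAMDC, the S-adenosylmethionine decarboxylase that supplies the aminopropyl groups of spermidine and spermine, had 0.42 ± 0.116 for Gm01259 (adjusted p = 0.196). Its direct arrays gave 0.93 and 0.42. Without these 2 arrays the estimate was 0.05, so the value came mainly from them. The other SAMDC probes had 0.19, -0.05 and -0.16. Among the 8 probes of inositol and polyamine synthesis 1 was called on the positive side, where 0.698% of all tested probes lay, and none on the negative side, with a median of 0.24. ADC, the arginine decarboxylase that starts one route to putrescine, had -0.06 ± 0.239.

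**Figure D2:**
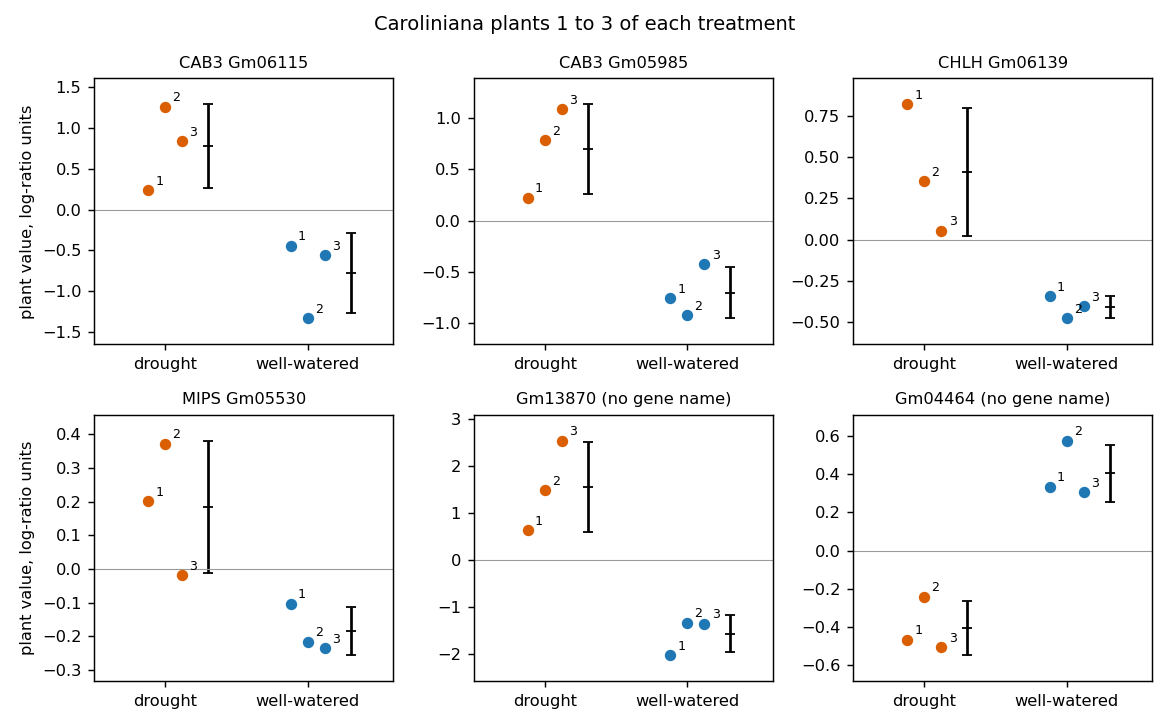
Values of each caroliniana plant, drought left and well-watered right, in log-ratio units centred on the 6 plants, for the 4 called named probes with values on all arrays and 2 called probes without a gene name. Numbers are plant numbers and bars are mean ± SD (n = 3). In each panel the groups do not overlap, and for MIPS Gm05530 drought plant 3 (-0.02) comes closest to the well-watered plants (highest -0.10).

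CYP98A2, the p-coumaroyl ester 3'-hydroxylase of the phenylpropanoid pathway, was not called, with 0.78 and 0.77 on the direct arrays for Gm08062. Drought plants 1, 2 and 3 had 0.73, 0.60 and -0.24, against -0.19, -0.02 and -0.87 in the well-watered plants, and drought plant 3 overlapped with them. The fitted effect was 0.61 ± 0.204 (adjusted p = 0.526), and 0.36 without the direct arrays. The other CYP98A2 probes had -0.04 and 0.00. IFS2, the 2-hydroxyisoflavanone synthase of legume isoflavonoid synthesis, had 0.27 ± 0.102 for Gm18586 (adjusted p = 0.801), with 0.37 and -0.10 on the direct arrays. IF7GT, an isoflavone 7-O-glucosyltransferase, had 0.22 ± 0.105. None of the 29 probes of phenylpropanoid and flavonoid synthesis was called, their median was -0.00759, and 14 lay on the positive and 15 on the negative side. Chalcone synthase (CHS1, 0.12, -0.12 and 0.08), chalcone reductase (CHR1, -0.04 to -0.01 over 4 probes) and the flavanone 3-hydroxylase F3H (0.10, 0.05 and -0.07) were among those near 0.

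None of the 467 probes with a gene name was called on the negative side. As only 0.102% of all tested probes were, this absence is not a result about the named genes. The named genes with the smallest p there were LOC547634 with -0.51 ± 0.171 (adjusted p = 0.516), LOC548038 with -0.34 ± 0.109 (adjusted p = 0.522) and MET2 with -0.28 ± 0.0942 (adjusted p = 0.522). For MET2 the direct arrays gave -0.32 and -0.32, and its other probes had -0.24, -0.19 and -0.16, so that all 4 lay on the negative side without passing the test. LOC732582 had -0.68 ± 0.236, with -1.36 and -0.61 on the direct arrays. DR1 (-0.23 ± 0.0871), LOC778097 (-0.17 ± 0.0672), SOYAP2 (-0.18 ± 0.0763), LOC547729 (-0.29 ± 0.123) and CDC48 (-0.21 ± 0.0908), the ATPase that extracts ubiquitinated proteins, also missed the threshold. PGIP, the polygalacturonase-inhibiting protein of the cell wall, had -0.19 ± 0.0916, but -0.34 and 0.12 on the direct arrays. On the positive side LOC547820 had 0.55 ± 0.151 for Gm05863 (adjusted p = 0.183), while its other 4 probes lay between -0.45 and 0.06. LOC778110 (0.39 ± 0.147), LOC547643 (0.46 ± 0.204), LOC547835 (0.20 ± 0.0926) and LOC732565 (0.32 ± 0.160) completed that side.

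No named probe of a gene that handles reactive oxygen was called in caroliniana. What the 58 called probes without a gene name encode is not known. CAT1 and CAT5, catalases, had 0.30 ± 0.216 and 0.39 ± 0.323. For CAT1 the value rested on the direct arrays (0.26 and 0.73), without which it was -0.00139. The 3 probes of APX1, the ascorbate peroxidase, had 0.20, 0.05 and -0.12, and the superoxide dismutase SODB had 0.01. None of the 7 probes on the list of peroxide and superoxide scavenging was called, and their median was 0.13. The 7 probes of 5 glutathione transferase genes, a list added later, lay between -0.08 and 0.14 with none called.

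The other lists held no call on either side. Among 13 probes of late embryogenesis and dehydration proteins, a list in which the small GTPase RAB2 was caught by its letters, the median was 0.05 and the seed maturation proteins PM23 and PM30 marked the ends with 0.25 and -0.24. Among 11 lipoxygenase probes the median was -0.01, and LOX1.1 had -0.48 ± 0.234 (adjusted p = 0.999), with drought plants 1, 2 and 3 at -0.84, 0.17 and -0.03 and well-watered plants at 0.55, -0.23 and 0.37. The aquaporin PIP2-6 had -0.15 ± 0.145, the cell wall invertase CWINV 0.07 ± 0.0590 and the xyloglucan endotransglucosylase XTH1 0.03 ± 0.0947. The 30 probes of transcription factors ranged from -0.11 to 0.24, with DREB1-like Gm04716, of the family that binds dehydration-responsive elements, at the upper end (0.24 ± 0.120, adjusted p = 0.999). The other DREB1-like probes had 0.16 and 0.03, and DREB1 had -0.05. A list of 12 further transcription factor probes, added later, ranged from -0.32 for SCAM-2 Gm00864 to 0.09. The medians were -0.01 for 3 root nodule probes, -0.00298 for 13 seed storage probes, -0.06 for 6 ribosomal protein probes, 0.00110 for 3 probes of the chaperone BIP4 and -0.00660 for 4 probes of nitrogen and sulphur assimilation. GAPC1, a glycolytic enzyme gene often used for reference, had 0.03 and -0.01, and the defence protein PR-10 had -0.08. Over all tested probes 0.799% were called, so the absence of a call from lists this short is not a result about them.

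The 58 called probes without a gene name held the extremes. Gm05767 had 3.24 ± 0.682 (adjusted p = 0.0492) with values on 15 arrays and 1.81 on the single direct array that measured it. Gm13870 had 2.95 ± 0.606 (adjusted p = 0.0316). Its drought plants had 0.64, 1.49 and 2.55, against -2.02, -1.33 and -1.34 in the well-watered plants, so that the drought plants differed among themselves by more than the well-watered plants did. On the negative side Gm03935 had -1.91 ± 0.279 (adjusted p = 0.00322), with -0.73 and -2.72 on the direct arrays. Gm04464 had -0.95 ± 0.149 (adjusted p = 0.00412), and its drought plants had -0.47, -0.24 and -0.51, against 0.33, 0.57 and 0.31 in the well-watered plants. The other negative calls were Gm05264 (-0.78), Gm16162 (-0.77), Gm04508 (-0.86), Gm08698 (-0.61), Gm02447 (-0.45) and Gm07976 (-0.37), here listed in full because there were only 8, after their values had been seen.

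The calls with the smallest adjusted p (5.19e-04) were 3 other unnamed probes on the positive side, also chosen after their values were seen. Gm06141 had 0.49, 0.90 and 0.48 in the drought plants, against -0.33, -0.82 and -0.71 in the well-watered plants, and a fitted effect of 1.23 ± 0.132. Gm05935 had 0.98, 0.93 and 0.43, against -0.40, -0.95 and -0.99, and 1.59 ± 0.181. Gm05615 had 0.67, 0.65 and 0.85, against -1.15, -0.44 and -0.57, and 1.48 ± 0.171. These were the only called probes that passed without each of the 18 plants in turn. All 63 kept their sign in each of these fits, but 60 lost the call at least once, and the median called probe lost it without 9 of the 18 plants. The number of calls was 23, 4 and 36 when drought plants 1, 2 and 3 of caroliniana were left out, and 16, 14 and 26 when its well-watered plants 1, 2 and 3 were. Of the other plants, 6 moved it by more than 1.5 times: it was 40 without hybrid drought plant 2, 40 and 31 without viridis drought plants 1 and 2, 30 and 33 without viridis well-watered plants 1 and 2, and 106 without hybrid well-watered plant 2. No named call was among those that passed without each plant.

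The loop allowed the caroliniana response to be read from the direct arrays and from the rest of the loop separately. The 2 direct arrays shared no plant and had opposite dye orientations. Of the 61 called probes with a value on both, the positive calls had medians of 1.35 and 1.35. All 61 lay on the same side on both arrays, against 3205 of all 7730 tested probes with both values. Since these arrays entered the fit that made the calls, this is a description. Across all 7730 probes measured on both arrays, the values had a Pearson correlation of 0.204 and a Spearman correlation of -0.104, and of 0.290 and 0.00649 after the fitted dye term was taken off. These correlations run across probes of 2 arrays that share their dyes, clones and normalisation, and probes are not independent replicates. Over the 7669 probes that were not called, the correlations were -0.0698 (Pearson) and -0.131 (Spearman), so that these probes showed no positive relation between the direct arrays.

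**Figure D3:**
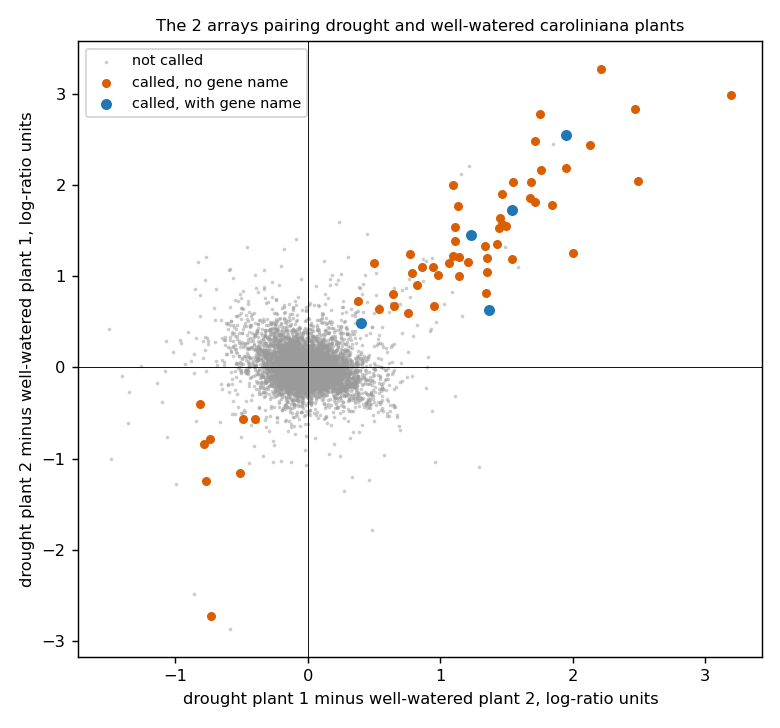
Drought minus well-watered on the 2 arrays that paired caroliniana plants of both treatments, in log-ratio units; each point is a probe, with the 63 called probes in colour where both values exist (61). Called probes lie in the upper right and the lower left, and the uncalled probes form a cloud around 0.

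When both direct arrays were left out, in an alternative added after the data were seen, no probe was called (350 had an unadjusted p below 0.05, and the lowest adjusted p in the limma test was 0.0509). All 63 kept their sign, 60 had an unadjusted p below 0.05, and the median of the positive calls was 1.38, against 1.34 on the direct arrays alone and 1.41 with all arrays. The median SE over all probes was 0.149 without the direct arrays and 0.101 with them. Single named calls moved in both directions: without these arrays CAB3 Gm01099 was 4.65, against 2.70 with them, Gm06115 was 1.70, Gm05985 was 1.72, CHLH Gm06139 was 0.54 and MIPS Gm05530 was 0.21. The uncalled probes of these genes moved further, to 3.36 for CAB3 Gm05769, 0.02 for CHLH Gm06047, and 0.14 and 0.04 for MIPS Gm03671 and Gm00068. Of the uncalled LOC genes named above, LOC547643 was 0.09, LOC778110 0.23, LOC732565 0.17, LOC547835 0.12, LOC732582 -0.23, LOC547729 -0.02, LOC778097 -0.11 and LOC548038 -0.55 without them. Among the other uncalled genes, CAT5 was 0.12, IFS2 Gm18586 0.50, DR1 -0.14, CDC48 -0.13, PGIP -0.36, PIP2-6 -0.41 and CWINV 0.01. Each of these uncalled values differed by more than 1.5 times from the one over all arrays.

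Over the 51 called probes with values on all arrays, each plant was placed on a scale on which the mean of the caroliniana well-watered plants is 0 and that of the caroliniana drought plants is 1. Drought plants 1, 2 and 3 lay at medians of 0.962, 1.13 and 0.928, against 0.0201, -0.0777 and 0.00700 in the well-watered plants. These medians lay close together within each group but do not show the spread of single probes. For Gm13870 the SD of the drought plants was 0.95 in log-ratio units. The groups did not overlap for any of the 51, against 404 (7.52%) of all 5371 such probes without overlap. The probes were chosen by this difference, so the positions of the caroliniana plants are a description. On the same scale the hybrid drought plants lay between 0.851 and 1.28 and the hybrid well-watered plants between -0.580 and 0.194. The viridis drought plants lay between 0.572 and 1.08 and the viridis well-watered plants between -0.265 and -0.0368. Every drought plant of the other morphotypes therefore lay nearer to 1 than to 0, and every well-watered plant nearer to 0. Their values were solved from the same loop that gave the calls, so these positions too are a description.

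The direct arrays of the other morphotypes hold no caroliniana plant, although through the loop they entered the fit that made the calls. The 55 positive calls had medians of 1.61 and 1.94 on the hybrid direct arrays and of 1.54 and 1.43 on the viridis direct arrays, set beside 1.35 and 1.37 on those of caroliniana. Of the values present, 50 of 50, 52 of 52, 55 of 55 and 53 of 54 lay on the positive side. The single exception was MIPS Gm05530, with -0.02 and 0.02 on the viridis arrays. Of the 8 negative calls, 7 of 8 and 8 of 8 lay on the negative side on the hybrid arrays and 8 of 8 and 7 of 7 on the viridis arrays. Over all tested probes, 4615 of 7776 and 4631 of 7815 on the hybrid arrays lay on the side of the caroliniana estimate. On the viridis arrays 4659 of 7848 and 4599 of 7779 did.

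In the fits, all 63 probes had the same sign in the hybrid (63.5% of all tested probes did) and in viridis (66.6%). The effects of the morphotypes came from the same fit of the loop. In size the hybrid effect was the larger for 56 (88.9%, against 69.9% of all tested probes) and the viridis effect for 40 (63.5%, against 56% of all). The sides differed: the hybrid effect was the larger for 55 of the 55 positive calls but for 1 of the 8 negative calls. For the viridis effect these counts were 39 and 1. Of the 63, 59 were also called in the hybrid (163 calls, 2.07% of all probes) and 48 in viridis (56 calls, 0.711%), 46 in both, and 2 in neither, while over all 7880 probes 52 were called in both of those morphotypes and 7713 in neither. The positive calls had a median of 1.41 in caroliniana, 2.09 in the hybrid and 1.56 in viridis, and the negative calls medians of -0.77, -0.44 and -0.43. CAB3 Gm06115 had 1.64 in caroliniana, 2.29 in the hybrid and 1.71 in viridis, and CHLH Gm06139 had 0.81, 0.87 and 0.65. MIPS Gm05530 had 0.35, 0.40 and 0.08.

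**Figure D4:**
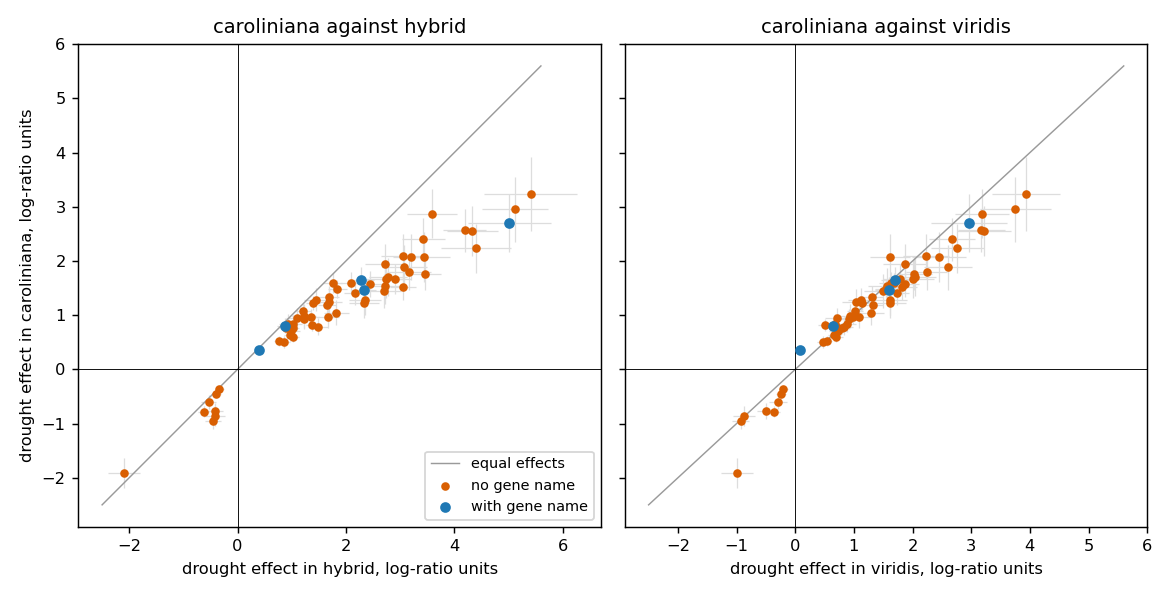
Drought effect in caroliniana (vertical axis) against that in the hybrid (left) and in viridis (right) for the 63 probes called in caroliniana, in log-ratio units with SE bars; the grey line marks equal effects. Positive calls lie below the line in the hybrid panel (median 2.09, against 1.41 in caroliniana) and near it in the viridis panel (median 1.56).

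The test of the difference itself called no probe. Against the hybrid 0 of 7880 passed (0%), with 295 at an unadjusted p below 0.05 and a lowest adjusted p of 0.827 in the limma test. Against viridis 0 passed (0%, 81 at an unadjusted p below 0.05), and against the mean of both 0 passed (0%, 122). Each of these counts at an unadjusted p below 0.05 was smaller than evenly spread p-values would give. Among the 63 probes called in caroliniana, 33 (52.4%) had an unadjusted p below 0.05 for the difference from the hybrid, against 3.74% of all tested probes, and 32 of the 33 were positive calls, for which the hybrid effect was always the larger. The same count for the difference from viridis was 4 (6.35%), against 1.03% of all. These probes were chosen by the caroliniana effect, which is also one side of the difference. With 1 plant left out, the count of calls against the hybrid stayed at 0 except without hybrid well-watered plant 2. Without that plant it was 130, of which 119 were on the negative side, and the calls for the caroliniana effect itself rose from 63 to 106. On the called probes that plant lay at 0.194 on the scale above, the closest of all well-watered plants to the drought plants. Why its removal changed these counts was not tested.

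The named probes with the smallest p for these differences were not called. Against the hybrid, APX1 Gm05083 had a difference of -0.42 ± 0.115 (unadjusted p = 0.00222, adjusted p = 0.901), from effects of 0.05 in caroliniana (-0.02 to 0.09 with 1 plant left out) and 0.47 in the hybrid. Without hybrid well-watered plant 2 this difference was -0.50 and passed (adjusted p = 0.0274), as did LOC547870 with 0.51 (adjusted p = 0.0488). CAB3 Gm01099 had a difference of -2.32 ± 0.723 (unadjusted p = 0.00696), from 2.70 and 5.02, and LOC547870 one of 0.39 ± 0.132 with all plants, from -0.16 (0.02 without the direct arrays) and -0.55. Against viridis, PRX2B had a difference of 0.38 ± 0.0964 (unadjusted p = 0.00119), from 0.13 in caroliniana and -0.25 in viridis, and LOC547835 one of 0.40 ± 0.117. VLXC, a vegetative lipoxygenase, had -0.93 ± 0.239 against viridis (unadjusted p = 0.00136) and -0.69 ± 0.208 against the mean of both. Its effect in caroliniana was -0.11 ± 0.192, with -0.56 and 0.29 on the direct arrays, against 0.82 in viridis and 0.34 in the hybrid, and its sign in caroliniana turned with 1 plant left out (-0.45 to 0.26). DREB1-like Gm04716 had a difference of 0.35 ± 0.133 from the mean of both and PGIP one of -0.25 ± 0.0991.

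The positive calls were crowded along the clone numbers of the array. The stretch of 250 neighbouring tested probes richest in positive calls ran from clone 5602 to clone 6120 and held 34 of the 55 (13.6% of its probes), while the other 7630 held 21 (0.275%). No negative call lay inside and 8 lay outside. Since the stretch was chosen by the calls, its count is a description. Among the probes that were not called, 132 of 216 inside (61.1%) had a positive estimate, against 44.8% of 7601 outside, with medians of 0.03 and -0.00989. The position of these probes was fixed by their called neighbours, so this too is a description. The stretch held 31 named probes. CAB3 Gm06115, Gm05985 and Gm05769, CHLH Gm06047, LOC547820 Gm05863 and PSAD Gm06019 were among them with positive estimates, and LOC732571 (-0.92 ± 0.608), VPE2 (-0.56 ± 0.497) and APX1 Gm05712 (-0.12 ± 0.155) had negative ones. CHLH Gm06139 lay just past its upper edge, MIPS Gm05530 shortly before its lower edge and CAB3 Gm01099 far from it. What the clones of the stretch have in common was not tested.

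**Figure D5:**
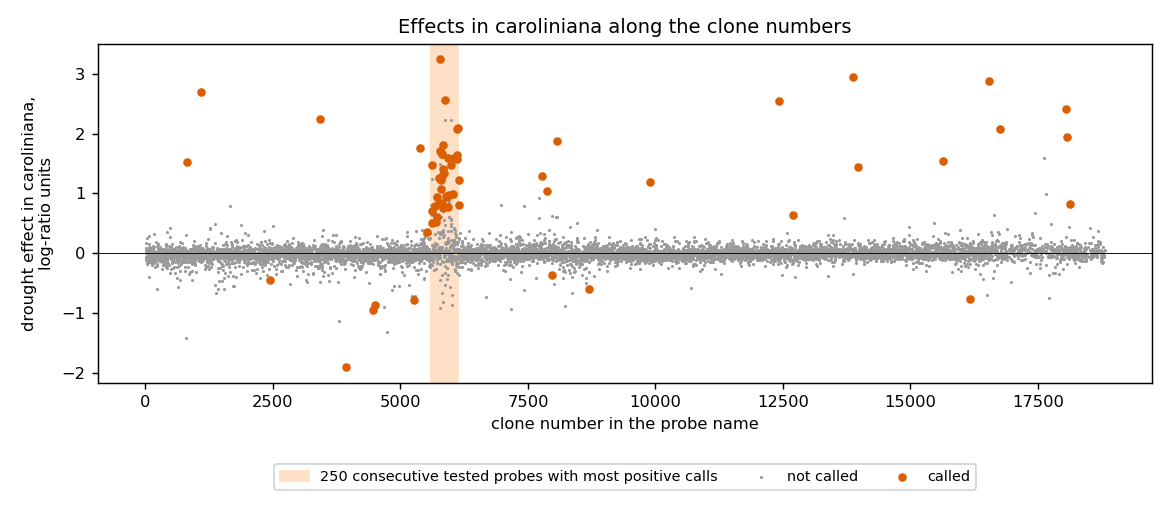
Drought effect in caroliniana in log-ratio units against the clone number in the probe name, for the 7880 tested probes, with the 63 called probes in colour. The shaded stretch from 5602 to 6120 holds 34 of the 55 positive calls and none of the 8 negative ones.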

How the data were processed

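Each deposited value is the log ratio of an array's channels, entered as log2 although its base and channel order are unstated. The range of -5.83 to 5.58 is too wide for base 10. How the authors normalised them is not given in the sources used here, and arrays were neither centred nor scaled again. Of 9600 probes, 8176 had values, 5371 on all 18 arrays, and the 7880 with values on at least 14 were tested, with gaps left as gaps. A generalised least squares fit per probe over the closed loop of 18 arrays had group terms, a dye term and random plant effects. Of the 6 groups, caroliniana well-watered was the origin, and the group terms were the differences of the others from it. The plant variance was 0.25 of the array variance over all probes, by restricted maximum likelihood. Tests were limma's moderated tests (limma 3.58.1 in R 4.3.3), two-sided, with 3.95 prior and 12 residual df, Benjamini-Hochberg adjustment over all tested probes and a threshold of 0.05. Simulated data of the same layout were used to test the fit. Each array's dyes were taken from the order of the plant codes in its title, the second being Cy5.

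Gene symbols came from the supplied table of soybean genes, in which 552 probes had an entry, 546 with a single symbol and 6 with several, which were left unnamed. Named were all called probes with a symbol and the other probes of their genes, the 12 genes with the smallest p on each side, up to 3 members per list, the 3 named probes with the smallest p for each difference between morphotypes, and at most 2 unnamed probes per side. Exceptions are marked where they occur. Lists matched symbols by their first letters, and the pattern for glutathione transferases matched none, so 7 lists were added. Members and lists were chosen with earlier results of these data known. Signal over background is unknown because channel intensities were not used here, and the number of arrays limits the precision. Plants with the same number were not taken as pairs, because the correlations of their deviations from the group means ran from -0.533 to 0.600. Alternatives were independent arrays, a plant variance equal to the array variance, the array marked bad left out, arrays centred or scaled, complete probes or probes on at least 12 arrays, no dye term, weighted arrays, a replicate block, the 10 arrays with a caroliniana plant alone, and each plant left out. Figures were drawn with matplotlib 3.10.9.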

Additional observations from a re-analysis of the deposited data

How the results depend on the processing

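The 63 called probes kept their sign wherever they could be fitted, in each alternative and with each plant left out. Their number was 33 with a plant variance equal to the array variance, 38 without a dye term and 113 with arrays weighted by quality and independent, where 86 (76.1%) lay on the positive side, against 87.3% in the reported fit. It was 0 without the 2 direct caroliniana arrays and 109 without both viridis drought plant 3 and hybrid well-watered plant 2, both added after the data were seen. With 1 plant left out it ran from 4 (without caroliniana drought plant 2) to 106 (without hybrid well-watered plant 2). Of the reported calls, 62 were among the 109, 33 among the 33 and 38 among the 38. With plant number as a replicate block it was 50, and as only 2 of the 9 numbers correlated best with their own number, the block is given here only. Calls for the difference from the hybrid were 10 with weighted arrays, 9 with the 10 caroliniana arrays alone, 132 without both plants named above and 0 to 130 with 1 plant left out. For the difference from the mean of the hybrid and viridis they were 6 without both plants and 0 to 1 with 1 plant left out, and for the difference from viridis 0 throughout. Some uncalled estimates changed sign: CAT1 (0.30 with all arrays) was -0.00139 without the direct arrays, PIP2-6 0.00546 with the 10 caroliniana arrays and 0.0109 on the direct arrays alone, and with 1 plant left out XTH1 ran from -0.0168 to 0.0806, APX1 Gm05083 from -0.0177 to 0.0859 and VLXC Gm10164 from -0.45 to 0.262. The cause of these changes was not tested. Turning the sign of every ratio exchanges the sides and leaves sizes and p-values as they are, and was not computed. Where a plant was left out its group of 2 was assumed to vary like the others. Values below background could not be set apart, as no intensities were used.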
